A study of Mus musculus with 61 samples.

Results

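Socs1, Socs2, Socs3 and Cish encode 4 intracellular inhibitors of cytokine signalling, and their transcripts were followed in mouse CD4 T cells cultured with or without the cytokine IL-27. The members were found by gene symbol, as 7 probe sets of these 4 genes, out of 20173 probe sets of 12291 genes named on the arrays. Socs1 and Cish had 1 probe set each, Socs2 had 2 and Socs3 had 3, and all 4 genes passed the filter on low values in the model fitted for each comparison, before any array was left out. The study measured naive CD4 T cells from C57BL/6 mice on 61 Affymetrix arrays, which its title ties to the differentiation of Tr1 cells, a regulatory T cell type that makes IL-10. The IL27 arm held 26 arrays of the type HT_MG-430A over 18 times from 0.5 to 72 h, and the ctrl arm held 26 arrays at the same times, with 2 arrays per arm at 8 times and 1 per arm at the other 10. A further 9 arrays of the type Mouse430A_2 held 1 IL27 and 1 ctrl array at 4, 16 and 48 h, an array named GFPP and one named GFPN at 48 h, and a ctrl array at 0 h. The same protocol text stood on every sample, controls included: antibodies at 1 µg/ml to CD3 and to a further target written as CD8, and IL-27 at 25 ng/ml. The arms were therefore taken from the sample titles, and the times, given there without a unit, were read as hours. No genotype, age or sex was given for either arm.

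Cytokine receptors of this class carry Janus kinases, which phosphorylate STAT transcription factors once a ligand binds, and the STATs then move to the nucleus and switch genes on. The SOCS genes and Cish are among those targets, and their proteins act back on the receptor complex, so the pathway limits itself. IL-27 signals through IL27RA and GP130 (Il6st), and STAT3 is among the factors it activates. SOCS1 blocks Janus kinase activity and restrains interferon signalling in T cells, SOCS3 binds GP130 and dampens STAT3 signals, and CISH and SOCS2 are targets of STAT5, which IL-2 activates in T cells.

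Promoter sequences are shown because STAT and interferon-regulatory factors bind known short motifs there. RefSeq entries (GRCm38.p6, 250 bases before the start and 50 after it) were present for 3 of the 4 members. A script searched both strands of each 300-base window for TTCNNNGAA, the STAT motif, and for GAAANNGAAA, a motif of interferon-regulatory factors, and capitals mark the matches. Of 32851 promoter windows, 8.30% held the STAT motif and 3.44% the interferon-regulatory one, while 0.457% and 0.225% held 2 or more. Socs1 (gene at chr16:10783808-10785536, minus strand) had 2 overlapping interferon-regulatory matches, from 83 to 74 and from 77 to 68 bases before the start, and no match of the STAT motif in this window. Socs3 (gene at chr11:117966079-117970336, minus strand) had 1 STAT match, from 154 to 146 bases before the start that the promoter table uses, which lies inside the annotated gene span. Cish (gene at chr9:107296659-107302784, plus strand) had 2 STAT matches, at bases 1 to 9 and 12 to 20 counted from its first transcribed base, and only the 30 bases around them are shown. Socs2 lies at chr10:95383903-95417321. A match is a string of letters here, and binding was not measured.
Socs1, 250 bases before the start, chr16:10785537-10785786, minus strand: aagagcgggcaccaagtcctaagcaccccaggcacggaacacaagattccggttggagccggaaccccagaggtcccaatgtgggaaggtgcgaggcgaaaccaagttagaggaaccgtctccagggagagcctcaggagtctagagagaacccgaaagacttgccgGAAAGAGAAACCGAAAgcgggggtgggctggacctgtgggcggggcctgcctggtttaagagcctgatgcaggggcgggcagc
Socs3, 250 bases before the start, chr11:117969367-117969616, minus strand: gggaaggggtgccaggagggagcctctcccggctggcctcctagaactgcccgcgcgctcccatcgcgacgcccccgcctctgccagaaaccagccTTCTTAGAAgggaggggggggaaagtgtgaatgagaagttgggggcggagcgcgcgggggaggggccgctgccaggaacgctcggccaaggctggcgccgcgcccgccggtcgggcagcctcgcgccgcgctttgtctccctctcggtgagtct
Cish, 30 bases across the start, chr9:107296654-107296683, plus strand: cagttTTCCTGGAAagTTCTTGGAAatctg

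The median intensity per array was 28.0 to 36.6 units on HT_MG-430A and 70.7 to 78.9 units on Mouse430A_2, and precision is limited by how many arrays there are. The ctrl array at 12 h stood apart from the rest of its type: over the 7163 genes tested its highest correlation with any other array was 0.871, against at least 0.977 for every other array. It enters the middle window, and the middle results that turn on it are given with and without it. The titles of 16 arrays, 8 per arm, end in an unexplained suffix d, and values are given within that suffix where it moves a call. All 9 T cell markers named on the arrays lay above the array median on at least 1 array of each arm and window. Of the CD8 chains, Cd8a was below the array median on every array and Cd8b1 was above it. B cell, myeloid and NK markers were mostly at or below the array median, and none of the listed markers was at 0. The labels do not say whether the arrays of an arm are separate cultures or animals. The p-values then describe how far these arrays spread, and the spread between arrays of one time could be technical alone. In the window fits the spread also includes variation of the effect between times. In the course fits within an arm it also includes change of level between the times of a window.

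The question put to each member was how its transcript level differed between the IL27 and ctrl arms, and when. Differences are IL27 minus ctrl on the scale log2(intensity + 32), which understates the change of dim genes, and were fitted with limma across all genes in 3 windows of time. The early window ran from 0.5 to 4 h (5 arrays per arm), the middle window from 8 to 20 h (9 per arm) and the late window from 25 to 72 h (12 per arm). Early, 3 of the 4 members were higher in the IL27 arm and none lower, where 1.79% of all 7163 genes were called higher at an adjusted p under 0.05. In the middle window 2 of 4, Socs1 and Socs3, were higher, where 4.82% of all genes were. Late, Socs3 was higher and Socs2 lower, where 8.73% of genes were called higher and 9.77% lower. The 4 members thus followed 4 courses, described in turn. In such bulk samples, fewer cells carrying a transcript and less of it per cell cannot be told apart.

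**Figure D1:**
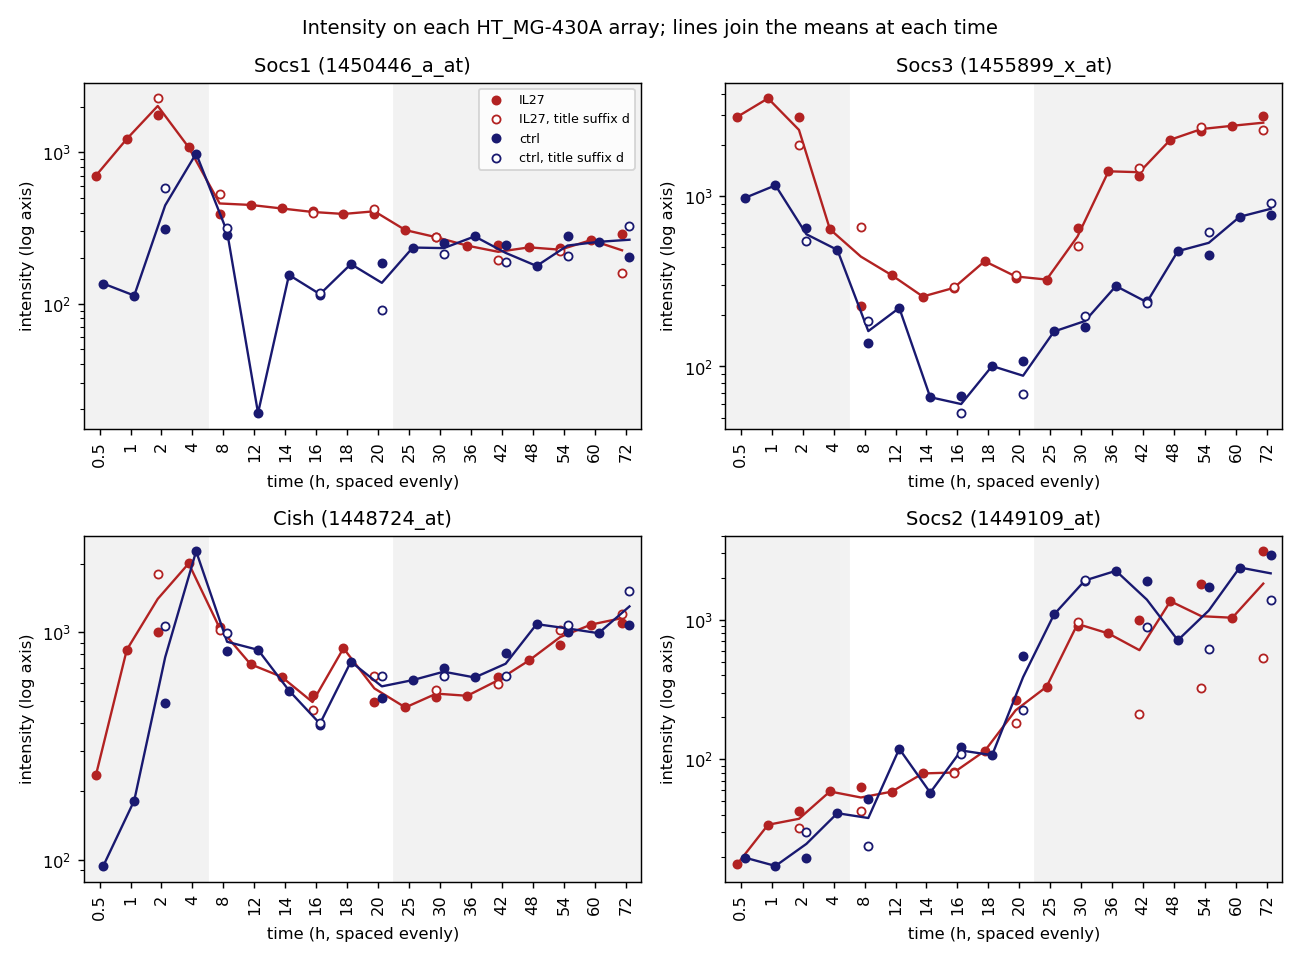
Intensity (log axis) of the brightest probe set of each member on each HT_MG-430A array, against time in hours with the 18 times spaced evenly. Red points are IL27 arrays and dark blue points ctrl arrays, open points have the title suffix d, lines join the means at each time, and grey bands mark the early and late windows. Socs1 separates the arms up to 20 h except at 4 h, where 1077 units in the IL27 arm lay close to 982 in the ctrl arm, Socs3 at every time, Cish only in the first hours, and Socs2 is high late in both arms with most ctrl arrays above.

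Socs1, the inhibitor of Janus kinases, had the largest early difference of the 4 members, and from 25 h on no difference was detected. In the IL27 arm it stood at 700 units at 0.5 h, 1226 at 1 h, 1775 and 2273 on the 2 arrays at 2 h, and 1077 at 4 h. In the ctrl arm it stood at 136 at 0.5 h, 113 at 1 h, 312 and 580 at 2 h, and 982 at 4 h. Up to 2 h every IL27 array lay above every ctrl array of these times. At 4 h, with 1 array per arm, the ctrl arm was at its own highest mean and the arms were 0.13 apart on the log2 scale. The IL27 arm thus peaked at 2 h, with a mean of 2024 units, and the ctrl arm at 4 h. The early difference was 1.94 ± 0.28 (SE, adjusted p = 1.6e-05), and it was called at 1 h (3.12 ± 0.39, adjusted p = 0.00020, from 1 array per arm with the spread taken from duplicated times) and at 2 h (2.15 ± 0.28, adjusted p = 2.5e-05), where 0.489% and 2.16% of all genes were called higher. At 0.5 h the difference of 2.13 ± 0.39, between 1 array per arm, had an adjusted p of 0.16.

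From 8 to 20 h the IL27 arm held Socs1 on a plateau and the ctrl arm lay below it. The 9 IL27 arrays ranged from 388 to 530 units with a median of 411, and the 9 ctrl arrays ranged from 18.9 to 316 with a median of 155. The groups did not overlap: the dimmest IL27 array was above the brightest ctrl array. The share of all genes separated in this way, here or in the first hours, was not counted. The difference was 1.40 ± 0.21 (adjusted p = 6.1e-06). The lowest ctrl value, 18.9 units, is that of the 12 h array that stands apart, and without it the difference was 1.17 ± 0.19 (adjusted p = 2.3e-05). Single-time calls were made at 16 h (1.56 ± 0.28, adjusted p = 0.0024) and 20 h (1.43 ± 0.28, adjusted p = 0.0068), where 0.963% and 0.754% of genes were called higher. A call at 12 h (3.24) rests on the ctrl array just named, at a time when 22.8% of all genes were called higher.

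From 25 h on the arms met. Socs1 ranged from 160 to 306 units with a median of 244 on the 12 late IL27 arrays, and from 177 to 325 with a median of 240 on the 12 late ctrl arrays. The ranges overlapped almost entirely, and the late difference was 0.04 ± 0.18 (adjusted p = 0.93). The difference between arms was lower late than early (-1.90 ± 0.33, adjusted p = 0.00017, with 3.62% of all genes called in that direction). It was also lower late than in the middle window (-1.36 ± 0.27, adjusted p = 0.00089, with 3.87% called), or by -1.14 ± 0.24 without the 12 h ctrl array (adjusted p = 0.0018). Without the arrays of suffix d, late minus middle was -1.31 (adjusted p = 0.067), and among arrays with the suffix alone the early Socs1 difference was 1.91 (adjusted p = 0.059).

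Socs3, the inhibitor that binds the GP130 chain of the IL-27 receptor, was higher in the IL27 arm at all 18 times. On its brightest probe set both IL27 arrays were above both ctrl arrays at all 8 duplicated times. The share of all genes ordered like this, at all 18 times or at the duplicated ones, was not counted. The Socs3 level traced a U: high in the first hours, low from 8 to 25 h and high again by 72 h, in both arms. In the IL27 arm it stood at 2918 units at 0.5 h, 3754 at 1 h, 2907 and 1991 at 2 h, and 639 at 4 h. In the ctrl arm it stood at 975 at 0.5 h, 1158 at 1 h, 651 and 544 at 2 h, and 483 at 4 h. Both arms were highest at 1 h, and both were lower at 4 h, when the difference, from 1 array per arm, was the smallest of the course (0.38). The early difference was 1.50 ± 0.22 (adjusted p = 3.1e-05), and at 2 h it was 1.96 (adjusted p = 0.00013). Without the 2 h arrays, the only duplicated early time, the early difference was 1.20 (adjusted p = 0.077).

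The trough of Socs3 lay higher in the IL27 arm. From 8 to 20 h its 9 IL27 arrays ranged from 226 to 657 units (median 331), and its 9 ctrl arrays ranged from 53.3 to 221 (median 101). On this brightest probe set the groups did not overlap, and the share of all genes separated in this way was not counted. The middle difference was 1.45 ± 0.17 (adjusted p = 5.5e-08), or 1.56 ± 0.17 (adjusted p = 2.1e-08) without the 12 h ctrl array. Single-time calls were made at 16 h (1.81, adjusted p = 0.00061) and 20 h (1.64, adjusted p = 0.0021).

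The late rise of Socs3 reached 2954 and 2447 units on the 2 IL27 arrays at 72 h, against 774 and 912 units on the 2 ctrl arrays. At 25 h, where it began, the values were 324 units in the IL27 arm and 160 in the ctrl arm. Over the whole late window the 12 IL27 arrays ranged from 324 to 2954 units (median 1800), and the 12 ctrl arrays from 160 to 912 (median 373). The window ranges overlap because both arms climb, but at each time every IL27 array was above every ctrl array. How many of all genes were ordered like this at each late time was not counted. The late difference of 1.85 ± 0.14 (adjusted p = 1.5e-12) was called at 7 of the 8 times, from 1.49 at 30 h to 2.39 at 42 h (adjusted p from 1.6e-05 to 0.023). At 25 h it was 0.89 and not called. The calls at 36, 48 and 60 h rest on 1 array per arm, with the spread taken from duplicated times. The share of all genes called higher at these times was 0.572% at 30 h, 0.321% at 36 h, 0.935% at 42 h, 0.712% at 48 h, 2.90% at 54 h, 1.59% at 60 h and 5.81% at 72 h. No change of the Socs3 difference between windows passed the test. Late minus early was 0.35 ± 0.26 (adjusted p = 0.51). Late minus middle was 0.40 ± 0.22 (adjusted p = 0.26), or 0.29 ± 0.22 without the 12 h ctrl array. Middle minus early was -0.05 ± 0.28 (adjusted p = 0.97, and 0.06 ± 0.27 without the 12 h ctrl array), where 1.24% of all genes were called in either direction.

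The other Socs3 probe sets gave the same direction and somewhat different sizes. Early, 1416576_at gave 1.79, 1456212_x_at gave 1.63 and the brightest, 1455899_x_at, gave 1.50. In the middle window they gave 1.07, 1.45 and 1.45, and late 1.88, 1.86 and 1.85, all called. The probe sets ending in _x_at, whose probes may match other transcripts, are named as Socs3 only in the annotation of the Mouse430A_2 type, while 1416576_at is named in both. On 1416576_at the IL27 arm read 89.0 units at 25 h and a mean of 1166 at 72 h, and the ctrl arm read 65.1 and 292 at these times. The arms were less separate on 1416576_at: 2 of its 9 middle IL27 arrays were above every middle ctrl array. Both IL27 arrays were above both ctrl arrays at 7 of the 8 duplicated times, again without a count over all genes. The 1416576_at difference changed by -0.72 ± 0.34 middle minus early (adjusted p = 0.45) and by 0.81 ± 0.27 late minus middle (adjusted p = 0.064).

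**Figure D2:**
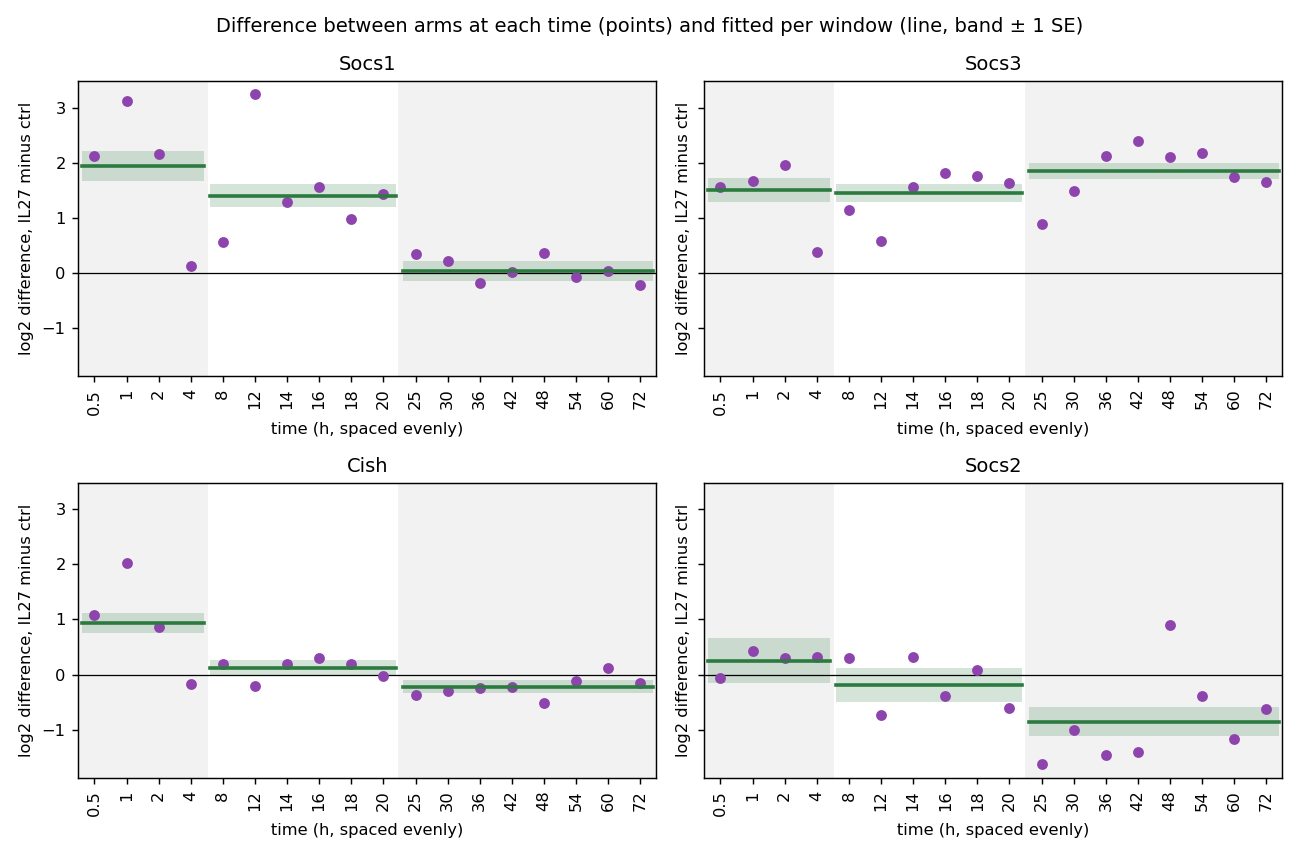
Difference IL27 minus ctrl in log2(intensity + 32) for each member, against time in hours with the 18 times spaced evenly. Purple points are the difference of the arm means at each time, and green lines with bands are the fitted window difference ± 1 SE. The Socs1 points fall to about 0 from 25 h on, the Socs3 points all lie above 0, the Cish points are above 1 only at 0.5 and 1 h, and the late Socs2 points lie below 0 except at 48 h.

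Cish, a STAT5 target whose product limits IL-2 and T cell receptor signalling, was called higher in the IL27 arm in the early window only. In the IL27 arm it stood at 235 units at 0.5 h, 838 at 1 h, 1005 and 1800 at 2 h, and 2008 at 4 h. In the ctrl arm it stood at 94.0 at 0.5 h, 182 at 1 h, 488 and 1066 at 2 h, and 2272 at 4 h. The mean was highest at 4 h in both arms, and the IL27 mean was above the ctrl mean at the times before it, though at 2 h the arrays with suffix d were brighter in both arms and the lower IL27 array was below the higher ctrl array. The early difference was 0.93 ± 0.18 (adjusted p = 0.0012), and among single times it was called only at 1 h (2.02 ± 0.37, adjusted p = 0.0059), from 1 array per arm with the spread taken from duplicated times. Among arrays with suffix d alone it was 0.74 (adjusted p = 0.057), and without them 0.98 (adjusted p = 0.029).

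After its peak Cish ran close in both arms. From 8 to 20 h it ranged from 457 to 1059 units (median 640) on IL27 arrays and from 392 to 991 (median 645) on ctrl arrays, and the difference was 0.12 ± 0.13 (adjusted p = 0.60), or 0.16 ± 0.14 (adjusted p = 0.59) without the 12 h ctrl array. Late it ranged from 467 to 1206 units (median 696) on IL27 arrays and from 617 to 1521 (median 902) on ctrl arrays. The IL27 mean was below the ctrl mean at 7 of the 8 late times, but the difference of -0.22 ± 0.12 did not pass the test (adjusted p = 0.21). The difference between arms was lower late than early (-1.15 ± 0.21, adjusted p = 0.00048). The step from the early to the middle window was -0.81 ± 0.22 (adjusted p = 0.063). Without the 4 h arrays, 1 per arm, at which the arms had met on this array type, it passed the test (adjusted p = 0.0035). It also passed with each time and suffix pair of arrays as a replicate block (adjusted p = 0.024).

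Socs2, best known as a brake on growth hormone signalling and a target of STAT5, was the late member. Its late level was called lower in the IL27 arm, a call that did not hold in every alternative. Up to 4 h Socs2 was dim: 17.7 to 58.8 units on the 5 IL27 arrays and 17.2 to 41.1 on the 5 ctrl arrays, near the median of the arrays. It was above its array's median on 4 IL27 arrays and 1 ctrl array there, and the early difference, between values near the array median, was 0.25 ± 0.41 (adjusted p = 0.94). From 8 to 20 h it ranged from 42.8 to 266 units (median 79.8) on IL27 arrays and from 24 to 552 (median 108) on ctrl arrays. These groups overlapped throughout, and the difference was -0.19 ± 0.30 (adjusted p = 0.73), or -0.13 ± 0.32 (adjusted p = 0.90) without the 12 h ctrl array.

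From 25 h Socs2 was among the bright transcripts of both arms. The 12 late IL27 arrays ranged from 211 to 3106 units (median 935), and the 12 late ctrl arrays from 616 to 2933 (median 1809). At 25 h it stood at 331 units in the IL27 arm and 1093 in the ctrl arm. At 36 h it stood at 799 in the IL27 arm and 2248 in the ctrl arm, and at 60 h at 1036 and 2374. These times, and 48 h, rest on 1 array per arm. At 48 h the order was turned, with 1361 units in the IL27 arm and 715 in the ctrl arm. The IL27 mean was thus below the ctrl mean at 7 of the 8 late times, with log2 differences from -1.63 to -0.40. The late difference was -0.85 ± 0.26 (adjusted p = 0.019), and no single time was called. The other probe set, 1418507_s_at, gave -0.82 ± 0.26 (adjusted p = 0.028), while 1449109_at, adjusted over all probe sets in that same fit, had an adjusted p of 0.021.

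The late Socs2 value is the least settled of the calls, because the title suffix d moved with its level. At 42 h the arrays with the suffix read 211 units in the IL27 arm and 895 in the ctrl arm, while those without it read 1001 and 1899. At 54 h they read 324 and 616 with the suffix and 1801 and 1719 without it, and at 72 h 533 and 1380 with it and 3106 and 2933 without it. At 30 h the arrays of both kinds were alike within each arm. So arrays with the suffix were lower in both arms at 3 of these 4 times, and the log2 difference between arms was -0.86 at 54 h and -1.32 at 72 h with the suffix, against 0.07 and 0.08 without it. Within the suffix the late difference was -1.27 ± 0.17 (adjusted p = 0.0022), without those arrays it was -0.64 ± 0.22 (adjusted p = 0.064), and with the suffix as a term of the model it was -0.85 ± 0.21 (adjusted p = 0.0036). It was also past the threshold neither without the 30 h arrays (-0.82, adjusted p = 0.055) nor without the 42 h arrays (-0.74, adjusted p = 0.061). The labels do not explain the suffix, and its part in the result was not tested beyond these values.

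The course of each member within an arm shows how its level moved with time in culture, with the caution that most genes moved: between windows 65.0% (middle minus early), 69.3% (late minus early) and 48.2% (late minus middle) of 6961 genes were called in the ctrl arm in either direction. In the IL27 arm these shares were 68.6%, 70.2% and 60.0% of 6954 genes. Socs2 was higher late than early by 3.63 ± 0.42 in the IL27 arm (adjusted p = 2.5e-08) and by 4.74 ± 0.38 in the ctrl arm (adjusted p = 3.8e-11). Its early values lay near the array median, so the size depends on the pseudocount: over the alternatives tried it ran from 2.76 (pseudocount 100) to 4.49 (pseudocount 1) in the IL27 arm and from 3.67 to 5.88 in the ctrl arm with the same pseudocounts, called in each. For Socs3 middle minus early was -2.54 ± 0.45 in the IL27 arm (adjusted p = 1.9e-05) and -2.49 ± 0.36 in the ctrl arm (adjusted p = 1.5e-06). It then climbed late by 2.00 ± 0.35 in the IL27 arm (adjusted p = 4.7e-05) and by 1.60 ± 0.29 in the ctrl arm (adjusted p = 8.0e-05). Its late minus early change was -0.54 ± 0.43 in the IL27 arm (adjusted p = 0.26) and -0.89 ± 0.35 in the ctrl arm (adjusted p = 0.025). The window mean of Socs1 fell in the IL27 arm, by 1.56 ± 0.18 into the middle window (adjusted p = 3.6e-08) and by a further 0.73 ± 0.14 into the late one (adjusted p = 0.00011). In the ctrl arm it fell by 1.03 ± 0.37 into the middle window (adjusted p = 0.018, and 0.11 without arrays of suffix d) or by 0.81 ± 0.33 without the 12 h ctrl array (adjusted p = 0.032), and late minus early was -0.39 ± 0.36 (adjusted p = 0.34). No change of Cish between windows passed the test in either arm, with late minus early at -0.34 ± 0.32 in the IL27 arm (adjusted p = 0.35) and 0.81 ± 0.40 in the ctrl arm (adjusted p = 0.075).

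The Mouse430A_2 arrays give the members on a separate array type, with a culture at 0 h. Socs3 read 872 units in the IL27 array and 411 in the ctrl array at 4 h, 868 and 147 at 16 h, and 5756 and 665 at 48 h. These are values of 1455899_x_at. On 1416576_at Socs3 was dimmer, with 136 and 56.2 units at 4 h, 131 and 48.0 at 16 h, and 648 and 84.4 at 48 h. The 16 h difference was 1.03 on 1416576_at and 2.33 on 1455899_x_at. At 0 h the ctrl array read 316 units on 1416576_at. Socs1 read 859 and 488 units at 4 h, 357 and 91.5 at 16 h, and 190 and 185 at 48 h in the same order. So both were higher with IL-27 at 4 and 16 h, and at 48 h Socs3 was, while Socs1 read nearly the same in both. Cish read 3601 units with IL-27 and 2586 without at 4 h, 943 and 784 at 16 h, and 1748 and 1721 at 48 h. Socs2 read 36.9 units with IL-27 and 43.6 without at 4 h, 155 and 182 at 16 h, and 893 and 1284 at 48 h. At 4 h the log2 differences were thus 0.77 for Socs1, 1.03 for Socs3 and 0.47 for Cish, against 0.13, 0.38 and -0.18 on HT_MG-430A. At 48 h the Socs2 difference was -0.51, against 0.90 on HT_MG-430A. Each of these values rests on 1 array per arm. The near meeting of the arms at 4 h and the turned order of Socs2 at 48 h were therefore not seen on both array types.

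Fitted over the 3 times, the differences were 2.14 ± 0.33 for Socs3, 0.82 ± 0.27 for Socs1, 0.25 ± 0.13 for Cish and -0.28 ± 0.14 for Socs2. None passed the test (adjusted p = 0.14, 0.49, 0.75 and 0.72 in that order), in a limma fit with 2 residual degrees of freedom that called 0.00% of 6508 genes. At an unadjusted p under 0.05 it held 480 genes, Socs3 and Socs1 among them (p = 0.00022 and 0.017). The ctrl array at 0 h read 3303 units for Socs3, 80.8 for Socs1, 311 for Cish and 28.1 for Socs2. Socs3 was therefore bright at 0 h, above every later ctrl array of this type, and the other members were at their lowest of the ctrl arrays there. The GFPP and GFPN arrays at 48 h read 5018 and 4933 units for Socs3, 228 and 234 for Socs1, 2482 and 2019 for Cish, and 3067 and 2599 for Socs2. With 1 array each, these values carry no test, and the labels do not explain either name.

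**Figure D3:**
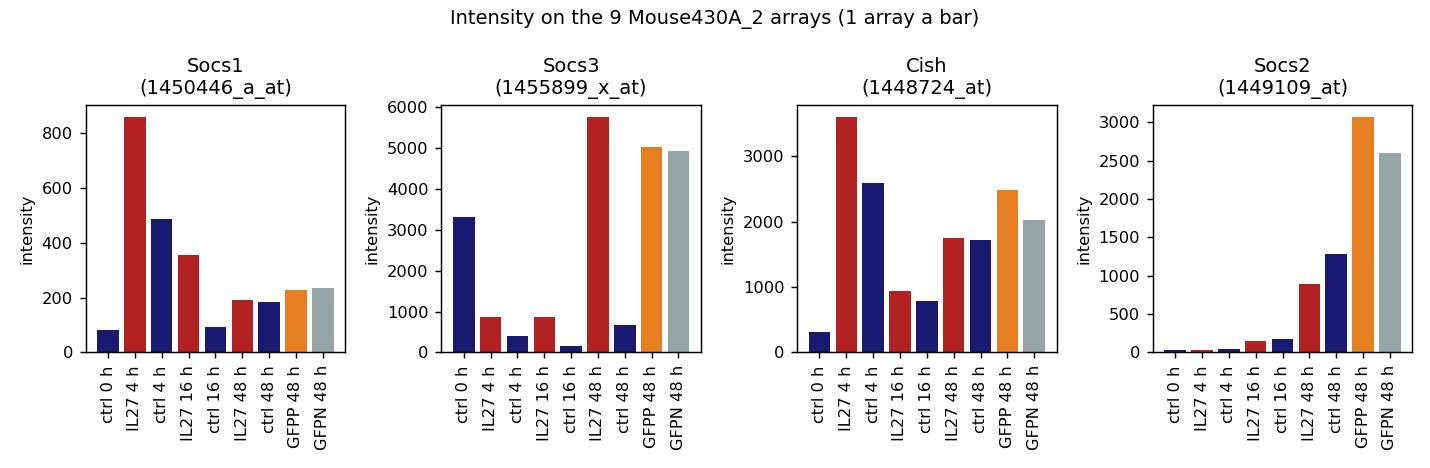
Intensity (linear axis from 0) of the brightest probe set of each member on the 9 Mouse430A_2 arrays, 1 array a bar, so there are no error bars. Red bars are IL27 arrays, dark blue bars ctrl arrays, orange GFPP and grey GFPN. Socs3 is high at 0 h in the ctrl array and again at 48 h in the IL27, GFPP and GFPN arrays but not in the ctrl array, where it read 665 units.

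Across the 18 times the differences between arms of Socs1 and Cish went up and down together more than those of any other pair of members (Pearson r = 0.68). The remaining pairs lay between -0.23 (Socs1 with Socs3) and 0.42 (Cish with Socs2). Without the 12 h arrays Socs1 with Cish was 0.89 and Socs1 with Socs3 was 0.01, so the negative value of that pair rests on 12 h, and the other pairs lay between -0.13 (Socs3 with Socs2) and 0.49 (Socs1 with Socs2). The points share arrays and times, so these correlations are descriptions and carry no p. Over all 7163 genes, the 3 most like Socs1 were Noc4l (r = 0.89), the transcription factor Irf4 (r = 0.89) and the interferon-induced GTPase Irgm2 (r = 0.88). Those most like Socs3 were the RNA-binding protein gene Arid5a (r = 0.88), the histone demethylase Kdm3b (r = 0.81) and the IκB-family gene Bcl3 (r = 0.80). The Kdm3b differences lay between -0.32 and 0.19 on the log2 scale, so its likeness is one of shape and not of size. Those most like Cish were Oas1b (r = 0.91), the chemokine Cxcl10 (r = 0.88) and Tmem140 (r = 0.88), and those most like Socs2 were Nrros (r = 0.89), the STAT-interacting gene Nmi (r = 0.86) and the kinase Sgk3 (r = 0.80). Without the 12 h pair of arrays each of these 12 values stayed between 0.73 and 0.92.

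The members belong to the JAK-STAT pathway, and its other genes were read in the same fit. Counts for these lists, and for the cell markers below, stand beside the share of all 7163 genes called in either direction. That share was 2.32% early, 10.7% in the middle window and 18.5% late. Among 6 tested genes of the other SOCS proteins and the ligase that SOCS boxes recruit, none was called early or late, and in the middle window Socs6 was higher (0.27 ± 0.08) and the adaptor Elob lower (-0.13 ± 0.04). Neither was called without the 12 h ctrl array (0.15, adjusted p = 0.079, and -0.13, adjusted p = 0.088). Their median difference was 0.03 early, 0.07 in the middle window and 0.05 late, beside -0.03, -0.02 and -0.01 over all genes. Socs4 and Socs5 were measured above the array median on every HT_MG-430A array of both arms, and Socs7 on none. Among 13 other negative regulators, the interferon-induced Usp18, which restrains the type I interferon receptor, was the only one called early (1.22 ± 0.25 higher). In the middle window 4 were higher, the phosphatases Ptpn1 (0.51), Ptpn6 (0.45) and Ptpn2 (0.28) and the SUMO ligase Pias2 (0.46), and the phosphatase Dusp1 was lower (-1.07 ± 0.12). Without the 12 h ctrl array Ptpn6 was not called (0.18, adjusted p = 0.24), while Ptpn1 (0.52), Ptpn2 (0.39), Pias2 (0.39) and Dusp1 (-1.04) were. Late, Ptpn2 (0.52 ± 0.07) and Ptpn1 (0.23 ± 0.07) were higher and Dusp1 (-0.41) and Ptpn11 (-0.21) lower.

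Upstream of the members, no Janus kinase of 4 was called early. Jak3, the kinase of the common gamma chain, was higher in the middle window (0.68 ± 0.10) and late (0.58 ± 0.08), Jak2 was higher late (0.25), and Tyk2 was lower in both windows (-0.19 and -0.15). Of 6 STATs, Stat2 was higher early (1.29 ± 0.20), Stat3 was higher in the middle window (0.83 ± 0.16), and Stat4 (-0.32) and Stat6 (-0.21) were lower late. Without the 12 h ctrl array Stat3 in the middle window was 0.63 ± 0.14, and Stat6 was called lower there too (-0.25, adjusted p = 0.034). Among 16 receptor chains, Il6st, the GP130 chain that SOCS3 binds, was the only one called early (0.59 ± 0.16). In the middle window 5 were higher, Il12rb1 (1.29), Il2rb (0.90), Il21r (0.79), Il4ra (0.47) and Il12rb2 (0.42), and 3 lower, Ifngr2 (-0.96), Il10rb (-0.32) and Ifnar1 (-0.28). Without the 12 h ctrl array Il4ra (0.36, adjusted p = 0.10) and Ifnar1 (-0.26, adjusted p = 0.051) were not called, and the other 6 were. Late, 5 were higher, Il12rb2 (1.29), Il21r (0.51), Il6ra (0.43), Il4ra (0.37) and Il27ra, the IL-27 receptor's own chain (0.35 ± 0.06), and 2 lower, Ifngr2 (-0.80) and Ifnar1 (-0.30).

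Of 8 ligands, none was called early and Il21, which signals through STAT3, was higher in the middle window (1.44 ± 0.22) and late (3.14 ± 0.19). Il21 was above the array median on 0 of 9 middle and 0 of 12 late ctrl arrays (means 19.8 and 22.9 units). No ctrl array of these windows thus helped it pass the filter, and its calls there are descriptions. The sizes are set against a dim probe set and depend on the pseudocount. Late, Il10 was called higher too, with 15.1 to 75.0 units on IL27 arrays, of which 5 of 12 were above the array median, and 8.8 to 12.1 on ctrl arrays, of which 0 were. Il10 passed the filter through those 5 IL27 arrays alone, so the call is a description and its size is not given. Late, 4 were lower: Csf2 (-2.06 ± 0.24), Ebi3 (-1.58 ± 0.11), Il3 (-1.28 ± 0.25) and Il2, the main activator of STAT5 in these cells (-1.25 ± 0.25). The lower late Il2 stood beside lower Socs2, a STAT5 target, and any link between them was not tested. Of 15 other STAT targets, 7 were higher early and 9 in the middle window, with none lower. Late 6 were higher and 2, Bcl2l1 (-0.55) and Pim2 (-0.59), lower. Those called higher stand beside the 1.79%, 4.82% and 8.73% of all genes called higher in the 3 windows. The list was chosen with earlier results of these data known, so its counts are descriptions. The 9 middle calls were also made without the 12 h ctrl array. Early examples were Iigp1 (2.68 ± 0.45), Cxcl10 (2.66 ± 0.24), Batf (1.63 ± 0.17) and Bcl3 (1.04 ± 0.16), and Bcl3, like Socs3, was higher in all 3 windows, with 1.09 ± 0.12 in the middle and 1.37 ± 0.10 late. So were Batf (1.12 in the middle and 0.50 late) and Gbp2 (1.76 early, 1.62 in the middle and 0.71 late). The list's median difference was 0.69 early, 0.45 in the middle window and 0.07 late, beside -0.03, -0.02 and -0.01 over all genes.

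**Figure D4:**
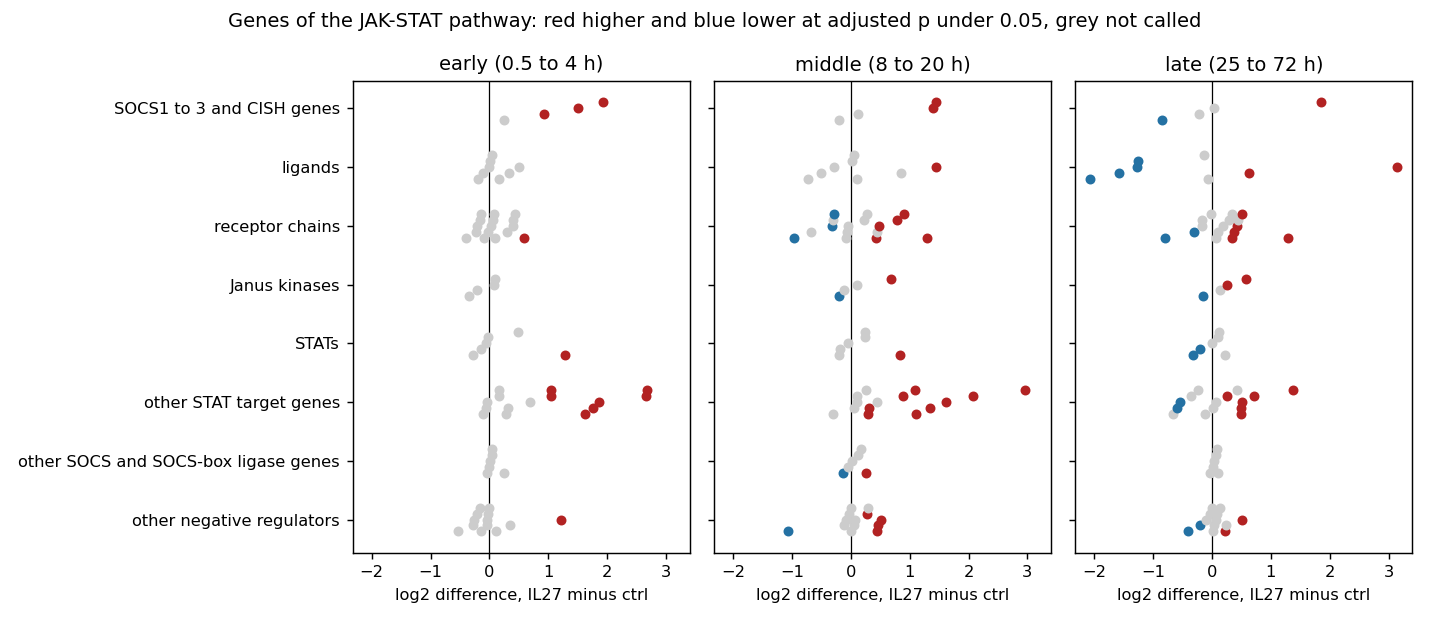
Difference IL27 minus ctrl in log2(intensity + 32), on the horizontal axis, of each tested gene of the pathway in the early, middle and late windows, with 1 point a gene and 1 row a gene list. Red points are called higher, blue points called lower and grey points not called at an adjusted p under 0.05, and points are spread up and down within a row only to keep them apart. The SOCS and CISH row holds 3 red points early, 2 in the middle and 1 late, when Socs2 at -0.85 is its blue point.

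Markers of other cells moved with the arms in places. The summed intensity of the CD8 chains Cd8a and Cd8b1 had a median of 80.6 units (55.6 to 136) on middle IL27 arrays and 142 (100.3 to 158) on middle ctrl arrays, and of 108 (65.8 to 151) on late IL27 arrays and 179 (110 to 326) on late ctrl arrays. Cd8b1, the only one tested, was lower in both windows (-0.58 and -0.62). Of 3 NK markers, Klrd1 was the one tested and was higher late (0.63 ± 0.16), with a list sum of 37.6 to 353 units on IL27 arrays and 37.8 to 63.3 on ctrl arrays. On late ctrl arrays 0 NK markers were above the array median, so the Klrd1 call is a description. Its size is set against dim values and depends on the pseudocount. The B cell list (2 of 3 tested) and the myeloid list (1 of 6 tested) had no call in any window. Of the 9 T cell markers tested, Cd28 and Cd4 were lower early. In the middle window Cd247 and Cd2 were higher and Thy1, Cd4 and Cd3g lower, and late Cd28, Cd247 and Cd5 were higher and Cd4 lower. The middle calls of the T cell markers and of Cd8b1 were also made without the 12 h ctrl array. Cd4 thus differed by -0.41, -0.52 and -0.30 in the 3 windows. The part of these markers in the members' differences was not tested.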

How the data were processed

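The authors deposited 1 table per array type with a linear-scale intensity in every cell, for 22626 probe sets. Per the submitters' processing notes the tool was MAS5, with no version or settings named. Intensities were used as the authors normalized them, type by type, without further normalization, and no test crossed array types. Platform annotation of both types gave gene names, brought up to date by gene identifier. One gene was named for 20173 probe sets, several for 942 and none for 1511, and only probe sets with a single gene were kept. The brightest probe set stood for its gene.

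After adding 32 and taking log2, values were fitted with limma 3.58.1 (R 4.3.3; lmFit, eBayes with an intensity trend). Genes had to exceed the median of their array on 5 arrays or more (3 on Mouse430A_2). The p-values were adjusted by the Benjamini-Hochberg method over all genes tested, and a gene was called at an adjusted p under 0.05. In the window model, times were factor levels and each window had an IL27 term, so its spread includes variation of the effect between times. Single times used a mean per arm and time, with the spread taken from duplicated times. Each arm's course was fitted as window means over its 26 arrays, so its spread includes change between the times of a window. The window model was tested on simulated arrays with known late differences, and the other fits were not tested in that way.

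The members, gene lists and marker lists were chosen with earlier results of these data known. The early Socs1 and Cish differences and those of Socs3 in each window are among those results. Genes named are the members, list genes called with the smallest adjusted p (up to 4 per list and window), genes that a count of 5 or fewer rests on, and the 3 genes of highest Pearson correlation with each member. Socs4, Socs5 and Socs7 were named for their level after their values were seen. The alternatives tried were other pseudocounts, filters, normalization, probe set rules and spread models, a term for the title suffix d, a mean of single-time contrasts, and leaving out times or arrays. The limit to arrays of suffix d, the correlation without 12 h, the pairing of arrays by time and suffix, and the pathway lists without the 12 h ctrl array were added after seeing the data.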

Additional observations from a re-analysis of the deposited data

Results flagged for a closer look

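The difference between the IL27 and ctrl arms changed over the course for 2 members, by a test of that change in the limma fit, where 3.62% of all genes were called lower late minus early and 3.87% late minus middle. For Socs1, late minus early was -1.90 ± 0.33 (adjusted p = 0.00017), and late minus middle was -1.36 ± 0.27 (adjusted p = 0.00089), or -1.14 without the 12 h ctrl array. For Cish, late minus early was -1.15 ± 0.21 (adjusted p = 0.00048). The Socs1 and Cish differences were positive at 4 and 3 of the 4 early times and at 5 and 1 of the 8 late times.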

How the results depend on the processing

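The early calls of Socs1, Socs3 and Cish each held in 32 of 33 alternatives. The middle and late calls of Socs3 and the middle call of Socs1 held in all 33. The late call of Socs2 held in 29 (differences -1.27 to -0.64). These counts include fits without a time outside the window of the call, which leave its difference unchanged and could hardly move the call. Without 12 h, for example, the early Socs1 difference stayed at 1.94 and the late Socs2 difference at -0.85. Leaving out the 12 h arrays of both arms was also counted more than once. The counts therefore overstate how many alternatives put a call at risk. Socs2 was not called late, leaving 0 members lower in place of 1, without arrays of suffix d, by the mean of single-time contrasts (adjusted p = 0.077), without 30 h and without 42 h. With arrays of suffix d alone, 1 member was called higher early in place of 3, 1 lower late minus early in place of 2 (Socs1, -2.02, adjusted p = 0.069) and 0 lower late minus middle in place of 1. Without those arrays, 0 were lower late minus middle and 1 lower middle minus early in the ctrl arm in place of 2. Cish middle minus early was called, giving 1 lower in place of 0, with a term for the suffix, by the mean of single-time contrasts, without 4 h and with the replicate block below. In the IL27 arm Socs2 was called higher middle minus early, 1 in place of 0, with a pseudocount of 1 and with the suffix term. On Mouse430A_2, leaving out a time gave 0 to 2 members called, from fits with 1 residual degree of freedom whose spread comes from other genes, and Socs2 passed the filter only without 4 h. Uncalled signs turned for Socs3 middle minus early, 0.191 with a pseudocount of 1, 0.0563 without the 12 h arrays or the 12 h ctrl array alone, 0.0216 by the mean of single-time contrasts, 0.250 without 2 h, 0.036 without 8 h and 0.0194 with suffix d alone. With suffix d alone they also turned for Socs3 late minus early (-0.0355) and late minus middle (-0.0549) and for Socs1 late (-0.108). The cause was not tested. The titles give no replicate numbers, so arrays of one time and suffix were paired across arms as a replicate block, an alternative chosen after seeing the data. In that paired fit late minus early was also called for Socs2 (-1.11 ± 0.32, adjusted p = 0.022), giving 3 members lower in place of 2, and the late Socs2 difference had an adjusted p of 0.00042. All calls of the members in the unpaired window fit were also made under the block.

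Over all genes, 166 were called early, against 9 to 236 in the alternatives (lowest without 2 h). The middle window had 764, against 93 (suffix d alone) to 1609 (mean of single-time contrasts), and the late window 1325, against 401 to 1781. Changes between windows had 89 middle minus early (19 to 428), 508 late minus early (117 to 730) and 581 late minus middle (41 to 1168). The Mouse430A_2 fit called 0, and up to 211 with a time left out. Dim values limit Socs2 up to 4 h, and 10 of the 18 times rest on 1 array per arm.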
